A study of Homo sapiens with 2 samples.

Results

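Interferon-stimulated effector genes are the antiviral genes that cells switch on after type I interferon binds its receptor, and 49 of them were followed here among the 58735 genes listed in each expression table. The members were taken from a fixed list of symbols (the IFIT, OAS, IFITM, MX, HERC and SAMD9 families, ISG15 and its enzymes, RSAD2 and others), with sensors, STAT factors and MHC genes left out, and all 49 were found by gene identifier. The list was proposed with results of these libraries already known, so the levels below describe the libraries and support no independent claim. The study asked how loss of the salt-inducible kinase SIK2 bears on Wnt signalling and stem-like properties in breast cancer. Its libraries came from BT549, a human breast cancer cell line. 1 culture carried a scrambled control hairpin and 1 a short hairpin RNA against SIK2 (shSIK2), and both had received the ligand Wnt3a for 2 h. Each group held 1 library, so the differences between them have no replicate check and carry no p-value. The sources used here do not say whether either culture was 1 clone or a pool, or how many hairpins were used. Cells without Wnt3a were not analysed here.

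Type I interferons act through the receptor chains IFNAR1 and IFNAR2, whose kinases JAK1 and TYK2 phosphorylate transcription factors such as STAT2. A complex that holds STAT2 and IRF9 then binds the interferon-stimulated response element in the promoters of target genes. The products block viral entry, RNA translation, replication and budding, and several are also switched on directly by the factor IRF3 when viral RNA or DNA is sensed. Tumour cell lines differ in how much of this programme they express without added interferon.

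The promoters of most members hold the core letters of the response element, which are GAAA, then any 2 bases, then GAAA again. Promoter windows from RefSeq (GRCh38.p14), running from 250 bases before the transcription start to 50 after it, were found for 42 members, and 30 of these (71.4%) held at least 1 match on either strand, against 4.38% of 27305 genes with a window. The longer form, the same letters followed by CT, is counted within the first and was found in 19 of the 42 and in 0.322% of all genes with a window. The core of the gamma-activated site, TTCNNNGAA, was found in 12 of the 42 and in 9.38% of all. A pair of whole windows is shown because both hold 2 core matches, while IFIT1 had 1 of the lowest ratios and IFITM3, the most abundant member, lay near equality. Capitals mark each core match, which reads TTTC, any 2 bases and TTTC where it lies on the other strand. The IFIT1 window is chr10:89392373-89392672, plus strand, and the IFITM3 window chr11:320811-321110, minus strand.
IFIT1: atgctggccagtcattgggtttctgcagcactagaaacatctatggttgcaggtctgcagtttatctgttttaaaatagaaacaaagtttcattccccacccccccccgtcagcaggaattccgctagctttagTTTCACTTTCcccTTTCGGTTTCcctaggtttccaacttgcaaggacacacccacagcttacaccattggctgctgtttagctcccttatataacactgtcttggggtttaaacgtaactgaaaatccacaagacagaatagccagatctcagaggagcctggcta
IFITM3: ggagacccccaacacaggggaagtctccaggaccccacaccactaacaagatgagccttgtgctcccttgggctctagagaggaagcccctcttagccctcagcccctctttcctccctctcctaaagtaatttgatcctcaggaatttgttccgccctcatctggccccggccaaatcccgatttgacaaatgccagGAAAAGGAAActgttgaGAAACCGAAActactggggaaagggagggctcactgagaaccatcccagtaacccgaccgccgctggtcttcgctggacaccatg

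Shorter stretches of 30 bases around a match show the element in other members that the results turn on. ISG15, RTP4 and OAS3 were at least 2-fold lower in the shSIK2 library, IFIT5 lay at the 2-fold limit, and IFITM1 and EPSTI1 were higher there.
ISG15: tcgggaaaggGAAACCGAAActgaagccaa
RTP4: accgaacaccGAAACTGAAActgtttgtct
OAS3: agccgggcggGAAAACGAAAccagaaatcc
IFIT5: ttacgtttagTTTCGATTTCttaagtttca
IFITM1: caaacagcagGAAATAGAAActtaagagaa
EPSTI1: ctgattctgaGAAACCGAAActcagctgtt
In this order the matches lie at chr1:1013390-1013399, chr3:187368367-187368376, chr12:112938462-112938471, chr10:89414549-89414558, chr11:314000-314009 and chr13:42992282-42992291. ISG15, RTP4, OAS3, IFIT5 and IFITM1 are on the plus strand and EPSTI1 is on the minus strand. DTX3L and PARP9, which are transcribed away from each other, share 1 match at chr3:122564332-122564341, read here first along DTX3L (plus strand) and then along PARP9 (minus strand).
DTX3L: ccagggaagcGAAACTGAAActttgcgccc
PARP9: gggcgcaaagTTTCAGTTTCgcttccctgg

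Levels are given as deposited FPKM, reads scaled by exon length and by a library divisor, which here carry the same divisor in both libraries, and each value could be turned back into whole reads. The libraries held 18019225 (scrambled) and 16347399 (shSIK2) such reads. SIK2 itself was at 7.80 FPKM with the scrambled hairpin and 3.56 with shSIK2 (1312 and 599 reads), 2.19-fold lower with a 95% counting interval of 1.99 to 2.42. None of 8 leukocyte markers and none of 3 endothelial markers reached 1 FPKM, with 6 and 2 of them at 0 in both libraries. The summed level of the leukocyte markers was 0.557 and 0.569 FPKM, in the order scrambled and shSIK2. CD68, 1 of the leukocyte markers at 0, shares 81.7% of its exon bases with other genes on the same strand, so its 0 says little. All 4 mesenchymal markers were measured and differed in direction. VIM stood at 260.3 and 283.3 FPKM and SPARC at 38.1 and 188.6, whereas FN1 stood at 13.0 and 9.82 and CDH2 at 2.44 and 0.400. Of the epithelial markers CDH1 had 11 and 2 reads and EPCAM 0 in both libraries. Of the receptors, ERBB2 stood at 4.96 and 6.75 FPKM, ESR1 had 6 and 0 reads, and PGR had 0 in both. What part these differences have in the members' ratios was not tested.

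Members were lower in the shSIK2 library as a group, but unevenly so. A gene is called measured where the higher of its values is 1 FPKM or more, and 40 members passed. Of these, 20 were at least 2-fold lower in the shSIK2 library on the scale of log2(FPKM + 0.1), 0 were 2-fold higher and the other 20 lay inside these limits. Of all 12866 measured genes, 8.28% were at least 2-fold lower and 11.0% at least 2-fold higher. With both libraries scaled to equal totals, 19 members were lower and 1, IFITM1, was higher, beside 5.90% (760) and 13.7% (1767) of 12892 genes. The median log2 ratio of shSIK2 over scrambled was -1.05 over the measured members and -0.11 over all measured genes. The quartiles were -2.31 and -0.39 for members, and -0.51 and 0.42 for all genes.

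A gene that is measured through 1 library alone had to differ, so the members were also counted without that step. In all, 32 members stood at 1 FPKM or more in both libraries, 6 in the scrambled library alone, all of them at least 2-fold lower, and 2 in the shSIK2 library alone. Among the 32, 14 were at least 2-fold lower, and 0 at least 2-fold higher, where 5.87% and 5.44% of the 11001 genes at that level in both libraries were. Over all 49 members, 22 were at least 2-fold lower and 1, IFITM2 with 1 and 5 reads, was at least 2-fold higher, against 10.5% and 16.0% of the 25018 genes with a read in either library. The median over all 49 was -0.86.

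**Figure D1:**
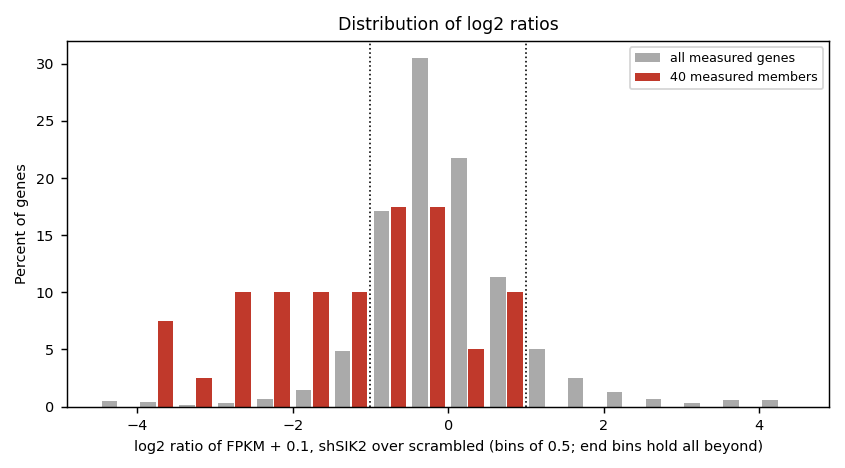
Percent of genes (vertical axis) in bins of the log2 ratio of FPKM + 0.1, shSIK2 over scrambled (horizontal axis), for all 12866 measured genes (grey bars) and the 40 measured members (red bars), with dotted lines at 2-fold. The members spread from -3.84 to 0.96, with 20 at or below the lower line and 0 above the upper one.

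Summed over all 49 members, the level was 981.9 FPKM with the scrambled hairpin and 473.6 with shSIK2. IFITM3 alone made up 19.8% of the first sum and 46.0% of the second, and without it the sums were 787.1 and 255.6, a ratio of 3.08. Members took 0.354% of the reads of the scrambled library and 0.157% of those of the shSIK2 library. At 10 FPKM or more stood 18 members with the scrambled hairpin and 7 with shSIK2. In bulk RNA, fewer cells that express a gene and less RNA per cell cannot be told apart.

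**Figure D2:**
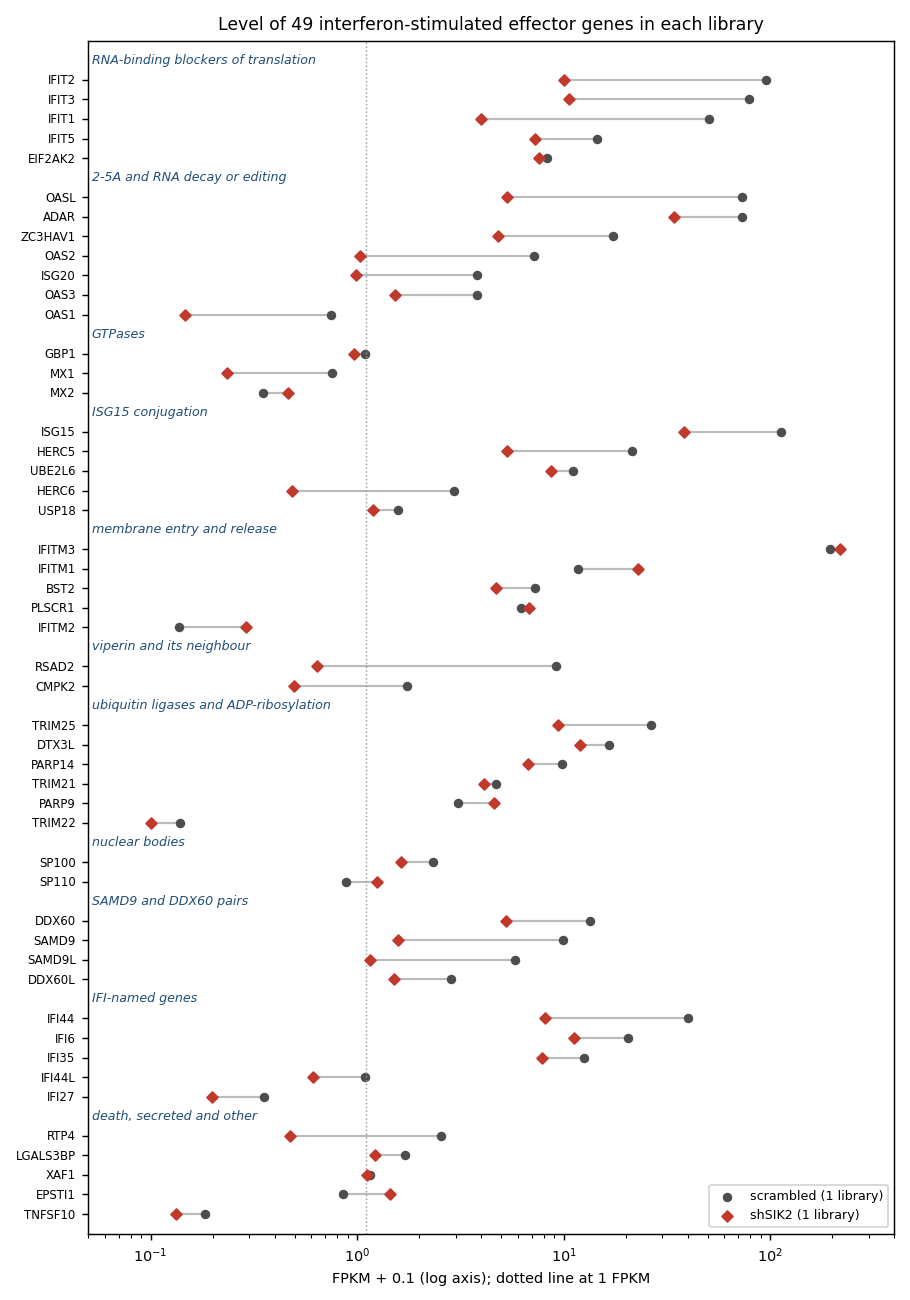
FPKM + 0.1 on a log axis for each of the 49 members, grouped by role, in the scrambled library (grey circles) and the shSIK2 library (red diamonds), with a dotted line at 1 FPKM. The grey circle lies to the right for 41 members and the red diamond for 8, and IFITM3 is the highest member in both libraries.

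The genes that bind viral RNA and halt its translation held some of the most abundant and some of the lowest-ratio members. IFIT1, which grips RNA that lacks a host-type cap, stood at 50.3 FPKM with the scrambled hairpin and 3.86 with shSIK2 (3983 and 306 reads), 13.0-fold lower (95% counting interval 11.6 to 14.7). IFIT2, its partner, stood at 95.2 and 9.93 FPKM, 9.59-fold lower (8.87 to 10.4). IFIT3, a scaffold that stabilises IFIT1, stood at 79.3 and 10.5 FPKM. These 3 genes ranked 7th, 3rd and 4th among the members in the scrambled library and 24th, 8th and 7th in the shSIK2 library. IFIT5, the remaining family member, stood at 14.4 and 7.15 FPKM with 991 and 493 reads, a 2.01-fold difference in reads, and its log2 ratio of FPKM + 0.1, -0.997, lay just outside the 2-fold rule, with ADAR at -1.09 just inside. EIF2AK2, the kinase PKR that shuts off translation on sensing double-stranded RNA, differed little, at 8.21 and 7.52 FPKM (log2 ratio -0.12). So 3 of these 5 genes were at least 2-fold lower, beside 8.28% of all measured genes, and the other 2 lay between.

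Every measured gene of the oligoadenylate synthetase, RNA decay and RNA editing group was at least 2-fold lower, 6 of 6, with a median log2 ratio of -1.91. Of all measured genes, 8.28% were at least 2-fold lower. In this group OAS2 and ISG20 reached 1 FPKM in the scrambled library alone, so they had to differ to some degree. OASL, a synthetase-like protein without enzyme activity that enhances RIG-I signalling, stood at 72.7 FPKM with the scrambled hairpin and 5.22 with shSIK2 (4387 and 315 reads), 13.9-fold lower (12.4 to 15.7). OAS2 and OAS3 make the oligoadenylates that activate RNase L. OAS2 stood at 7.12 and 0.930 FPKM and OAS3 at 3.72 and 1.42 FPKM. OAS1, another synthetase, was under 1 FPKM in both libraries, with 55 reads and 4. ISG20, an exonuclease, stood at 3.73 and 0.886 FPKM. ZC3HAV1, the zinc finger protein ZAP that marks CpG-rich viral RNA for decay, stood at 17.3 and 4.70 FPKM. ADAR, the editor that changes adenosine to inosine in double-stranded RNA, was the most read of the group, with 12088 and 5653 reads (72.7 and 34.0 FPKM). Its log2 ratio was -1.09, and -0.95 at equal totals, short of 2-fold.

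The dynamin-like and guanylate-binding GTPases were scarce. MX1, which traps viral nucleocapsids, had 97 reads with the scrambled hairpin and 20 with shSIK2. MX2, its neighbour, had 56 and 81 reads, and GBP1 85 and 74. All 3 were under 1 FPKM in both libraries, GBP1 only just, at 0.992 FPKM in the scrambled library. MX1 was thus low even in the library where IFIT2, OASL and ISG15 were abundant.

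ISG15, a ubiquitin-like modifier, its ligase HERC5 and the related HERC6 were lower, whereas the conjugating and removing enzymes of ISG15 differed less. ISG15 stood at 112.6 FPKM with the scrambled hairpin and 38.1 with shSIK2 (1819 and 615 reads), a log2 ratio of -1.56. It was the second most abundant member in both. HERC5, the main ISG15 ligase in human cells, stood at 21.3 and 5.22 FPKM, and its relative HERC6 at 2.84 and 0.382 FPKM. HERC6 reached 1 FPKM in the scrambled library alone, so it had to differ to some degree. UBE2L6, the conjugating enzyme, stood at 11.0 and 8.59 FPKM (log2 ratio -0.36). USP18, which removes ISG15 and also dampens the interferon receptor, had 54 and 40 reads (1.48 and 1.09 FPKM), a difference whose counting interval, 0.880 to 2.09-fold, includes equality.

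Of the 4 measured genes that act at membranes, 0 were at least 2-fold lower, and their median log2 ratio was 0.15. The share over all measured genes was 8.28%, so 0 of 4 does not set these genes apart from others. IFITM3, which blocks fusion of viruses in endosomes, stood at 194.9 FPKM with the scrambled hairpin and 218.0 with shSIK2. IFITM1, a relative at the cell surface, had 215 and 421 reads (11.6 and 22.7 FPKM), 1.96-fold higher in the shSIK2 library (1.66 to 2.32), and past 2-fold at equal totals with a log2 ratio of 1.103. It was the highest ratio of the measured members. IFITM2, a near-identical relative of IFITM3 in the same cluster, had 1 and 5 reads, and IFITM1 shares 32.5% of its exon bases with another annotated gene, so how reads divide within this cluster is uncertain. BST2, tetherin, which holds budding virions on the cell, stood at 7.13 and 4.63 FPKM. PLSCR1, a phospholipid scramblase, stood at 6.10 and 6.69 FPKM.

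RSAD2 encodes viperin, a radical enzyme that makes a chain-terminating nucleotide, and had the lowest ratio of all members. It stood at 9.11 FPKM with the scrambled hairpin and 0.542 with shSIK2, 756 and 45 reads, 16.8-fold lower (12.4 to 23.2). Of all measured genes, 0.567% had a log2 ratio as low as that of RSAD2. CMPK2, a mitochondrial nucleotide kinase encoded head to head with it, stood at 1.64 and 0.393 FPKM with 121 and 29 reads. Both were under 1 FPKM in the shSIK2 library and so measured through the scrambled library alone, which means that they had to differ to some degree.

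Ubiquitin ligases and ADP-ribosylation factors were mostly between the limits, as most measured genes were (8.28% at least 2-fold lower). Of the 5 measured members, 1 was at least 2-fold lower. That member was TRIM25, a ligase that supports RIG-I, at 26.3 FPKM with the scrambled hairpin and 9.30 with shSIK2. TRIM21, an antibody receptor of the cytosol, stood at 4.59 and 4.02 FPKM, and TRIM22 had 4 reads and 0. DTX3L, a ligase, stood at 16.5 and 11.9 FPKM, lower by 0.47 on the log2 scale. Its partner PARP9 went the other way, from 456 reads to 688 (2.97 and 4.48 FPKM), 1.51-fold higher (1.34 to 1.70). The counting intervals of DTX3L and PARP9 both exclude equality, on opposite sides, and the genes share the response element letters shown above. PARP14, a mono-ADP-ribosyltransferase nearby, stood at 9.75 and 6.61 FPKM.

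The nuclear body proteins SP100 and SP110 also lay between the limits. SP100 stood at 2.23 FPKM with the scrambled hairpin and 1.52 with shSIK2. SP110 had 92 and 135 reads (0.781 and 1.15 FPKM), 1.47-fold higher in the shSIK2 library (1.12 to 1.93). It reached 1 FPKM in the shSIK2 library alone, so it had to differ to some degree.

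The paired genes SAMD9 and SAMD9L, whose products restrict poxviruses, were both lower. SAMD9 stood at 9.89 FPKM with the scrambled hairpin and 1.49 with shSIK2, and SAMD9L at 5.69 and 1.05 FPKM. DDX60, a helicase-like protein, stood at 13.3 and 5.16 FPKM, and its neighbour DDX60L at 2.74 and 1.40 FPKM (log2 ratio -0.92). Of these 4 genes, all but DDX60L were at least 2-fold lower, beside 8.28% of all measured genes.

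Genes named for interferon inducibility differed to unequal degrees. IFI44 stood at 40.2 FPKM with the scrambled hairpin and 8.06 with shSIK2, a log2 ratio of -2.30, and was the 1 of 3 measured members past 2-fold. The share at least 2-fold lower over all measured genes was 8.28%. IFI6, a mitochondrial and endoplasmic reticulum protein, stood at 20.4 and 11.2 FPKM (log2 ratio -0.86). IFI35 stood at 12.5 and 7.80 FPKM. IFI44L, with 174 and 90 reads, reached 0.990 FPKM just under the minimum, and IFI27 had 18 and 7 reads.

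Among the remaining members RTP4, a regulator of antiviral sensing, had 65 reads with the scrambled hairpin and 10 with shSIK2 (2.44 and 0.375 FPKM). XAF1, a pro-apoptotic antagonist of XIAP, was at 1.06 and 1.02 FPKM. LGALS3BP, a secreted glycoprotein, was at 1.61 and 1.12 FPKM. EPSTI1 had 64 and 113 reads (0.757 and 1.34 FPKM), 1.77-fold higher in the shSIK2 library (1.29 to 2.44). It reached 1 FPKM in the shSIK2 library alone, so it had to differ to some degree. TNFSF10, the death ligand TRAIL, had 5 and 2 reads. RTP4 was the 1 of 4 measured members of this group at least 2-fold lower, beside 8.28% of all measured genes. It reached 1 FPKM in the scrambled library alone, so it had to differ to some degree.

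Counting error was small beside most of these ratios, taken on reads as they stand, not scaled to equal totals. The interval of the read ratio lay below equality for 31 measured members, above it for 5 (IFITM1, EPSTI1, PARP9, SP110 and IFITM3), and included it for 4 (USP18, TRIM21, XAF1 and PLSCR1). The same count was not made over all measured genes, whose median log2 ratio was -0.11, so no general share stands beside it. EPSTI1 and SP110 reached 1 FPKM in the shSIK2 library alone, so both had to differ to some degree. The sign of the smallest ratios moved with the scaling: at equal totals EIF2AK2 had a log2 ratio of 0.014 and XAF1 of 0.084, and with the trend in GC and length taken out IFITM3 had -0.0085, EIF2AK2 0.22 and XAF1 0.19. In 7 members at least 10% of the exon bases also belong to another annotated gene (IFITM1, IFITM2, IFITM3, IFIT2, XAF1, SP110 and TRIM22), so their levels are less certain. For all 20 members at least 2-fold lower, of which 6 reached 1 FPKM in the scrambled library alone, the whole interval lay beyond 2-fold. These intervals cover counting error only, since PCR copies without molecular identifiers are not separate molecules, and they leave out the spread between cultures.

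**Figure D3:**
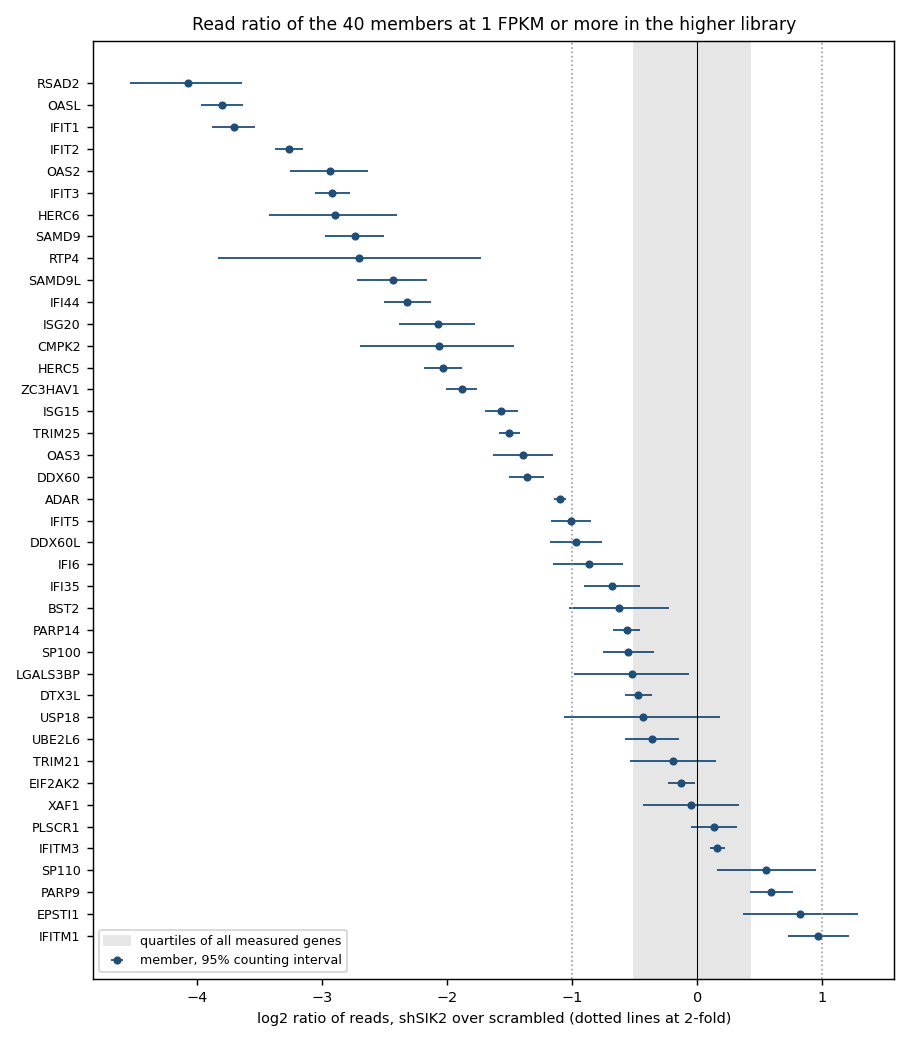
Log2 ratio of reads, shSIK2 over scrambled (horizontal axis), with its 95% counting interval for each of the 40 measured members, over a grey band between the quartiles of all measured genes (-0.51 and 0.42). RSAD2, OASL, IFIT1 and IFIT2 have the lowest ratios and IFITM1, EPSTI1, PARP9 and SP110 the highest.

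Position in the genome was not used to choose the members, and many lie in clusters. Within 200 kb of each other lay 22 pairs of members, 16 of them with both genes measured. In 7 of the 16 both genes were at least 2-fold lower, in 5 neither was, and in 4 the genes lay on opposite sides of the rule. The same counts were not made over all neighbouring pairs, so no general share stands beside them. Of single measured genes, 8.28% were at least 2-fold lower. The 16 pairs drew on 21 members, and several came from 1 locus, as for the IFIT genes, so the pairs are not independent. On chromosome 10, IFIT2, IFIT3 and IFIT1 had log2 ratios of -3.25, -2.90 and -3.67, and IFIT5, 8100 bases beyond IFIT1, had -0.997. On chromosome 12, OAS3 and OAS2 had -1.33 and -2.81. On chromosome 4, HERC6 and HERC5 had -2.61 and -2.01, and on chromosome 7 SAMD9 and SAMD9L had -2.65 and -2.33. The median absolute difference within the 16 pairs was 0.91, and 0.57 over 26947 measured protein-coding pairs within the same distance. The members also spread more widely in ratio than all genes do, so these medians do not show whether neighbouring members are closer to each other than other neighbours are, and 3 of the pairs share IFIT5.

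**Figure D4:**
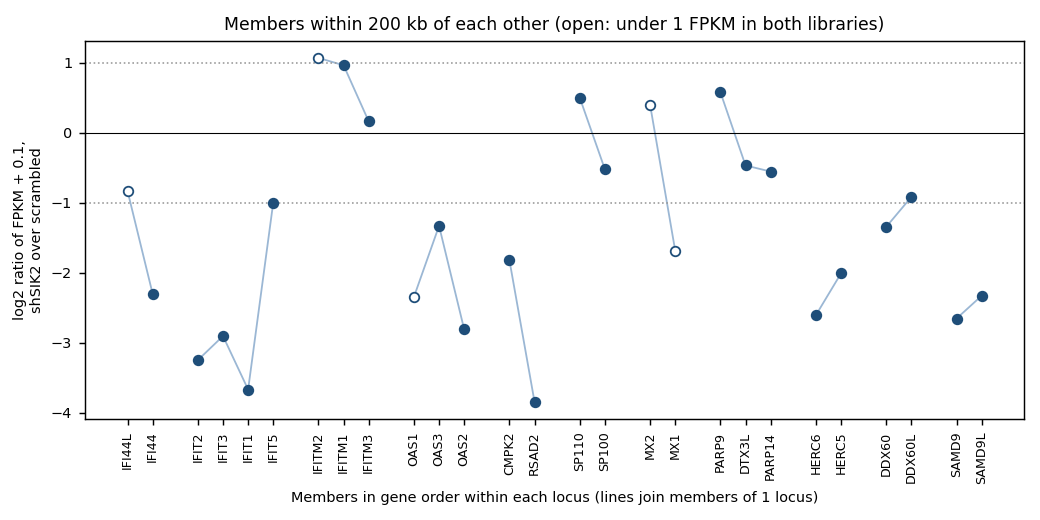
Log2 ratio of FPKM + 0.1, shSIK2 over scrambled (vertical axis), for members that lie within 200 kb of another member, in gene order and joined within a locus, with open circles for genes under 1 FPKM in both libraries. The IFITM locus lies above 0, the OAS, HERC and SAMD9 loci lie below -1, and IFIT5 stands apart from the other IFIT genes.

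Members with and without the response element letters both held lower genes. Of 25 measured members with a core match in their promoter window, 11 were at least 2-fold lower (median log2 ratio -0.92). Of 11 measured members with a window and no match, 6 were (median -1.09). The share at least 2-fold lower was 8.28% over all measured genes and 9.93% over 302 other measured genes with a core match. TRIM25 and ADAR are examples without a match in the windows used here, and IFITM3, IFITM1, EIF2AK2 and EPSTI1 are examples with a match and no lower ratio of 2-fold. Of 9 measured members with TTCNNNGAA, 2 were at least 2-fold lower (median -0.56), and of 27 without it, 15 were (median -1.33). Among 723 other measured genes with TTCNNNGAA, 7.61% were at least 2-fold lower. A match is a description of letters and not of a bound site, and 7 members had no window. Of these, 4 were measured, OASL, IFIT2 and OAS2 with log2 ratios of -3.77, -3.25 and -2.81, and USP18 with -0.40, so some of the lowest ratios are outside these counts.

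**Figure D5:**
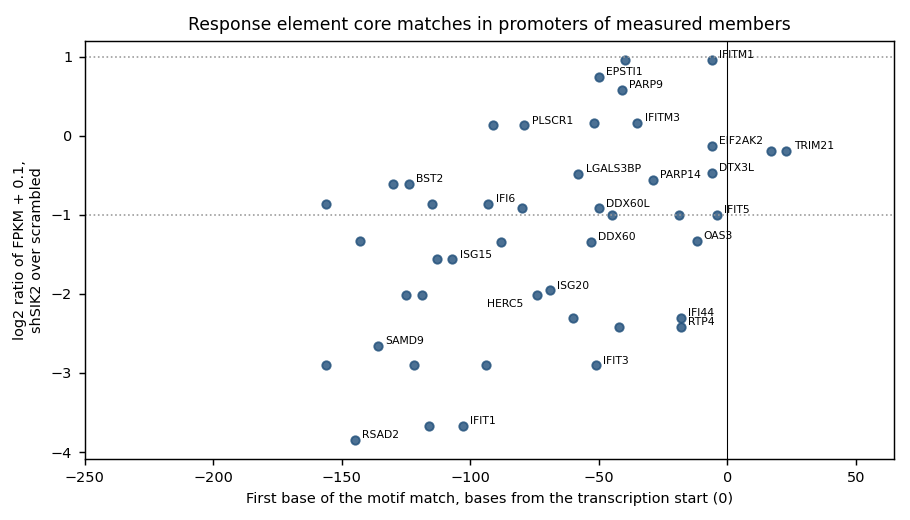
Position of each response element core match (first base, in bases from the transcription start at 0) against the log2 ratio of FPKM + 0.1, shSIK2 over scrambled, for the 25 measured members with a match, 1 point per match and window. Most matches lie before the start, in members with ratios from -3.84 to 0.96.

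The pathway upstream of the members was given by 37 other genes, of which 25 were measured, 6 at least 2-fold lower and 2 at least 2-fold higher. Of all measured genes, 8.28% were at least 2-fold lower and 11.0% at least 2-fold higher, so 2 higher genes of 25 do not exceed the general share. The 3 measured ligands, of 8 listed, were among the 6 lower pathway genes. Each of the 3 reached 1 FPKM in the scrambled library alone, so each had to differ to some degree. IFNB1, interferon beta, had 405 reads with the scrambled hairpin and 3 with shSIK2 (27.5 and 0.203 FPKM). IFNE had 47 and 14 reads. IFNL1, a type III interferon, had 23 and 0 reads, at least 7.67-fold lower with 3 reads set in place of 0, with an exact interval from 5.75-fold. The RNA sensors DDX58, which encodes RIG-I, and IFIH1, which encodes MDA5, stood at 77.5 and 11.4 FPKM and at 16.4 and 2.03 FPKM.

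The measured receptor gene, IFNAR1, and the measured transcription factor genes lay within 2-fold with the levels as deposited. IFNAR1 stood at 6.88 and 6.38 FPKM, scrambled first, and 0 of 6 measured transcription factors were at least 2-fold apart. STAT2 was higher in the shSIK2 library, with 364 and 670 reads (log2 ratio 0.86). Its log2 ratio was 0.999 at equal totals, just short of 2-fold, and 1.02 with the trend in GC and length taken out, past it. IRF9 had 27 and 58 reads, under 1 FPKM in both libraries. IFNAR2 had 10 and 14 reads, and shares 44.2% of its exon bases with other annotated genes on the same strand, as IRF9 does for 48.4%. Across both libraries, 92.8% of the 320 protein-coding genes whose exons are at least 99% covered by other genes on the same strand had 0 reads in both libraries, against 29.03% of the 11097 that share no exon base. The levels of IFNAR2 and IRF9 are therefore uncertain.

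Among the sensors and adaptors the genes at least 2-fold higher were TMEM173, which encodes STING, at 0.772 and 4.86 FPKM, and IKBKE, a kinase that activates IRF3, at 0.553 and 1.51 FPKM. Both reached 1 FPKM in the shSIK2 library alone, so both had to differ to some degree. PTPN11, a phosphatase that dampens STAT signalling, was the remaining measured lower gene, at 52.1 and 25.1 FPKM (log2 ratio -1.05). At equal totals its log2 ratio was -0.91, and with the trend in GC and length taken out -0.74, both short of 2-fold. SOCS1, another brake, had 6 and 30 reads, a 5.0-fold difference upward with shSIK2 (2.05 to 14.7), but was under 1 FPKM in both. Also under 1 FPKM, the interferon genes IFNA1 and IFNL3 had 5 and 3 reads with the scrambled hairpin and 0 with shSIK2.

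Members had a slightly lower GC content than other genes, with a median of 44.2% against 47.8% over all measured genes, and similar exon lengths (medians of 4800 and 4438 bases). Across all measured genes the Spearman rho between log2 ratio and GC content was 0.28, and over the 40 members it was 0.15; genes are not independent of each other. With the trend in GC and exon length taken out, 20 members were still at least 2-fold lower, with ADAR no longer among them and IFI6 added, and the median over members was -0.96.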

How the data were processed

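RNA sequencing of 2 BT549 libraries, 1 scrambled and 1 shSIK2, was deposited by the authors as FPKM per Ensembl gene, per the file headers. The submitters' processing notes name HISAT2 2.0.5 and hg18, whereas all 58735 identifiers matched GENCODE 29 on GRCh38. The sources used here do not give the counter, its strand setting or the formula, and leave the aligned build unsettled. Coordinates are GRCh38.

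FPKM times GENCODE exon length gave whole multiples of 1 step, 58.3 in both tables, for 100% of 21622 and 22790 values above 0 (tolerance 0.001 reads), taken as reads. The values are thus not scaled to each library's total. Log2 ratios used a pseudocount of 0.1, which understates those of low genes, and a minimum of 1 FPKM in the higher library. Fold intervals are exact (Clopper-Pearson, 95%). With 1 library per group no test was run. GC content is that of the longest transcript, and its trend and that of length were removed by medians in 20 bins of each.

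Every member is given with its values, and folds with intervals for the 4 lowest and 4 highest measured ones. Of the 37 pathway genes, those at least 2-fold apart are named, and IFNB1, IFNAR1, IFNAR2, STAT2 and IRF9 whatever their values; 1 gene fixed by name is not reported here. Members and lists were chosen with earlier results of these data known. Genes singled out beyond these rules were chosen after their values were seen. Promoters came from RefSeq (GRCh38.p14), matched by symbol. Scripts (Python 3.11.15, numpy 2.4.6, pandas 2.3.3, scipy 1.17.1, matplotlib 3.10.9) were tested on simulated data. Alternatives were scaling, pseudocount, filter and trend removal, with the members that share exon bases left out and a filter on the mean added after seeing the data.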

Additional observations from a re-analysis of the deposited data

How the results depend on the processing

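The count of members at least 2-fold lower ranged from 15 to 22 over 9 alternatives, beside 20 as reported, and the median of members from -1.42 to -0.86. Among these alternatives, scaling by the median of gene ratios gave the same counts and medians as reported, so it adds no separate check. With the 5 FPKM minimum, 26 members were left. Relative to all genes the median ranged from -1.22 to -0.83. At equal library totals 19 members were lower (5.90% of all genes) and 1, IFITM1, was at least 2-fold higher (13.7%). That count was also 1 without a filter (IFITM2) and after trend removal (EPSTI1). ADAR was no longer lower at equal totals or after trend removal, CMPK2 and OAS3 were not with a pseudocount of 1, and IFIT5 was with 0.01. The median of all measured genes was 0.039 at equal totals, -0.092 with a pseudocount of 1, 0 without a filter and after trend removal, -0.20 at 5 FPKM or more and -0.12 with a mean of at least 1 FPKM. The log2 ratio of SIK2 was -0.97 at equal totals, -0.95 with a pseudocount of 1 and -0.94 after trend removal. Pathway genes at least 2-fold higher numbered 2 as reported, and 3 at equal totals, without a filter and after trend removal. They numbered 1 with a pseudocount of 1 and 0 at 5 FPKM or more. At least 2-fold lower and higher among all genes were 621 and 760 with a pseudocount of 1, 2619 and 4008 without a filter and 551 and 430 at 5 FPKM or more, beside 1065 and 1414. The causes of these shifts were not tested, apart from those that a setting makes by construction. No paired analysis was possible because each group held 1 library. Below about 10 reads, as for IFITM2, TRIM22 and TNFSF10, depth does not show a direction.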

Other observations

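The longer response element form was also found in promoter windows of 16 measured genes that are not members. Of these, 2 were at least 2-fold lower in the shSIK2 library, IFNL1 and SSBP1, a mitochondrial DNA-binding protein, and 0 were at least 2-fold higher, with a median log2 ratio of -0.39. B2M, the light chain of MHC class I, stood at 159.5 FPKM with the scrambled hairpin and 101.2 with shSIK2, and the receptor kinase AXL at 46.4 and 33.5 FPKM. LAP3, an aminopeptidase, stood at 7.42 and 8.24 FPKM. With the core alone, 302 other measured genes had a match, of which 9.93% were at least 2-fold lower and 4.97% higher, beside 8.28% and 11.0% of all measured genes. These genes were looked up after the values of the members were known.

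The match nearest the transcription start began at a median of -69 bases in the 11 members at least 2-fold lower (-145 to -12) and of -38 bases in the other 14 measured members with a match (-124 to 23). The ranges overlap, and this split was made after the ratios were seen.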
